A study of Mus musculus with 36 samples.

Results

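Liver transcripts at ZT12, when the lights went off, were compared with those at ZT0, when they came on, in mice under chronic intermittent hypoxia (IH). The comparison took every library of these 2 groups, 3 at ZT0 and 3 at ZT12, which are 6 of the 36 libraries of the study, and each library was made from the liver of 1 mouse. All mice were male, wild-type C57BL/6JRj animals aged 16 weeks, kept 5 per cage under 12 h of light and 12 h of dark with free access to Rod16 chow and water. IH consisted of 60 cycles per hour between 5% and 21% FiO2, given from ZT0 to ZT8 on each day of 4 weeks, and the normoxia groups received air-air cycles instead. ZT12 therefore lay 4 h after a day's IH had ended, and whether the ZT0 mice had already begun that day's IH is not stated in the sources used here. Since food was never removed, the part of the clock and the part of feeding in a ZT12 to ZT0 difference cannot be told apart.

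In the liver, as in most tissues, a transcriptional loop runs the circadian clock. BMAL1 (Arntl) binds DNA together with CLOCK or NPAS2 at E-boxes and turns on the Per, Cry, Nr1d and Dbp genes, PER and CRY proteins then block BMAL1, and REV-ERB proteins (Nr1d1, Nr1d2) and ROR receptors compete at shared elements in Arntl and Npas2. Its output factors, with the daily rhythm of feeding in a night-active animal, are known to time much of hepatic sterol, bile acid, glucose and drug metabolism.

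The FPKM of the 6 libraries summed to between 574120 and 611518, between 15573 and 16135 symbols were above 0 in each, and replicates correlated across genes on the log2 scale with r from 0.978 to 0.993. Hepatocyte transcripts were abundant in all 6, with Alb, the gene of serum albumin, between 26500 and 36800 FPKM, and the exocrine pancreas markers Prss2, Ctrb1, Pnlip, Try4 and Try5 were listed at 0. One library stood apart before any test. In ZT0 replicate 2 the acute-phase gene Saa1 reached 22865 FPKM, against 111 and 79.7 FPKM in the other ZT0 mice, 2470 FPKM in ZT12 replicate 2 and 106 and 73.4 FPKM in the other ZT12 mice. Of the 31 acute-phase genes tested, 28 had their highest value of the 6 libraries in ZT0 replicate 2, which held the highest value for 17.4% of all genes. Results below are given with this library, and without it where leaving it out ended a call.

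Genes were tested with limma on log2(FPKM + 1), a scale that understates changes of genes near 1 FPKM, and were called at a Benjamini-Hochberg adjusted p of at most 0.05 over the 13215 genes tested. At ZT12, 158 genes (1.2%) were higher and 462 (3.5%) were lower than at ZT0, so 25.5% of the 620 called genes were higher. Counts of called genes in the lists below are to be read beside these 1.2% and 3.5%. With libraries scaled by the median of ratios 234 genes were higher and 345 lower (40.4% higher), and with quantile normalization 222 were higher and 347 lower (39% higher). Higher genes differed by 0.27 to 3.98 on the log2 scale (median 0.84), and lower genes by 0.19 to 4.32 (median -0.68), beside a median of -0.04 over all genes tested. Of the 13215 differences, 5411 were positive and 7782 negative. In all 158 and all 462, the ZT0 and ZT12 libraries did not overlap, as held upward for 9.8% and downward for 20.1% of all genes.

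The counts rested on each of the 6 mice. Without ZT0 replicate 2, 88 genes (0.666%) were higher and 253 (1.91%) lower, 289 of them among the 620. Leaving out ZT0 replicate 1 gave 101 and 207 genes, ZT0 replicate 3 gave 75 and 168, ZT12 replicate 1 gave 32 and 44, ZT12 replicate 2 gave 83 and 187, and ZT12 replicate 3 gave 8 and 18. All 620 differences kept their sign in each of these fits, and 23 genes, 7 higher and 16 lower, were called in all 6. Of the 92 called genes among the 124 named by rule, 76 were not called without ZT12 replicate 3, 60 without ZT12 replicate 1 and 25 to 35 without each of the other libraries. When the spread between mice was estimated over all 18 IH libraries, that is 6 time points, 939 genes (7.11%) were higher and 1963 (14.9%) lower at ZT12, and 611 of the 620 were among them. With these libraries less ZT0 replicate 2, 709 (5.37%) were higher and 1897 (14.4%) lower.

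The activator genes Arntl, Npas2 and Clock fell. Arntl (chr7:113207465-113314126, GRCm38), the gene of BMAL1, measured 9.60, 10.1 and 11.6 FPKM at ZT0 and 0.670, 1.96 and 1.26 FPKM at ZT12. Its 3 ZT12 values all lay below the ZT0 values, at a mean 8.04-fold lower, with a log2 difference of -2.35 ± 0.21 (SE) and an adjusted p of 0.00817. Npas2, whose protein can take the place of CLOCK, measured 2.75, 2.45 and 3.90 FPKM at ZT0 and 0.0221, 0.0227 and 0.00628 FPKM at ZT12. It was close to absent at ZT12 in all 3 mice (log2 difference -1.97 ± 0.13 (SE), adjusted p = 0.00370) and was called whichever library was left out. Clock itself changed less, at 3.69, 3.26 and 3.95 FPKM at ZT0 and 1.47, 2.34 and 2.11 FPKM at ZT12 (log2 difference -0.65 ± 0.13 (SE), adjusted p = 0.048), and was not called without ZT0 replicate 2 (adjusted p = 0.077) or without any other single library. Rora, the gene of a ROR receptor, had a difference of -0.49 ± 0.14 (SE) with an adjusted p of 0.093.

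The repressors moved the other way. Of 11 genes, 7 rose and 1 fell, with a list median of 1.15. Ciart, which encodes the repressor CHRONO, measured 0.231, 0.131 and 0.285 FPKM at ZT0 and 14.7, 5.64 and 9.78 FPKM at ZT12, a mean 46.6-fold higher with no overlap between the times (log2 difference 3.10 ± 0.29 (SE), adjusted p = 0.00817). Per2 measured 2.68, 1.09 and 1.38 FPKM at ZT0 and 9.92, 15.1 and 13.6 FPKM at ZT12. Per3 measured 0.140, 0.101 and 0.234 FPKM at ZT0 and 4.98, 3.07 and 3.63 FPKM at ZT12. Both were separated in every mouse, with log2 differences of 2.38 ± 0.24 (SE) and 2.06 ± 0.15 (SE) and adjusted p of 0.00985 and 0.00370. Per1 spread more at ZT0, at 0.643, 4.18 and 4.07 FPKM at ZT0 and 11.1, 9.97 and 16.1 FPKM at ZT12, and although the groups did not overlap it did not pass the test (log2 difference 1.90 ± 0.46 (SE), adjusted p = 0.068). Cry2 rose by 0.97 ± 0.09 (SE) (adjusted p = 0.00817), whereas Cry1, the other cryptochrome gene, measured 5.64, 6.50 and 8.21 FPKM at ZT0 and 4.84, 7.82 and 7.90 FPKM at ZT12. The Cry1 values of the times overlapped, and their difference was below the precision of the test (-2e-04 on the log2 scale, adjusted p = 1).

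The REV-ERB genes, which repress Arntl and Npas2, also differed in spread. Nr1d2 measured 1.45, 3.43 and 3.29 FPKM at ZT0 and 14.1, 9.49 and 10.3 FPKM at ZT12 and rose by 1.76 ± 0.26 (SE) (adjusted p = 0.022). Nr1d1 measured 3.56, 8.24 and 2.74 FPKM at ZT0 and 14.0, 7.46 and 6.37 FPKM at ZT12, so the ZT12 and ZT0 values overlapped through ZT0 replicate 2, and the test gave 0.85 ± 0.40 (SE) with an adjusted p of 0.26, or 0.10 without that mouse. The DEC repressors Bhlhe40 and Bhlhe41 rose by 1.15 ± 0.20 (SE) and 0.41 ± 0.07 (SE) (adjusted p = 0.032 and 0.031, and 0.064 and 0.074 without ZT0 replicate 2). Nfil3, a repressor that binds the D-boxes where DBP activates, was the member that fell, at 27.1, 37.0 and 31.7 FPKM at ZT0 and 10.1, 9.96 and 12.5 FPKM at ZT12 (log2 difference -1.47 ± 0.14 (SE), adjusted p = 0.00884), and it was called whichever library was left out.

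Output factors held the largest rises of the comparison. Dbp (chr7:45705088-45710203, GRCm38), a factor that activates through D-boxes, was barely detected at ZT0 and measured 0.122, 0.0637 and 0.140 FPKM at ZT0 and 35.1, 10.1 and 12.4 FPKM at ZT12. The mean was 177-fold higher at ZT12, although the ZT12 mice spread from 10.1 to 35.1 FPKM (log2 difference 3.98 ± 0.42 (SE), adjusted p = 0.010). Its relative Tef measured 3.29, 2.48 and 4.28 FPKM at ZT0 and 41.4, 29.3 and 33.4 FPKM at ZT12. Hlf, of the same family, measured 5.13, 3.48 and 4.15 FPKM at ZT0 and 9.27, 9.75 and 11.5 FPKM at ZT12. Neither gene overlapped between the times, and Tef rose by 3.04 ± 0.19 (SE) (adjusted p = 0.00370) and Hlf by 1.09 ± 0.14 (SE) (adjusted p = 0.015). Usp2, a deubiquitinating enzyme, measured 0.618, 0.274 and 0.822 FPKM at ZT0 and 25.3, 13.0 and 22.1 FPKM at ZT12 and had the second largest rise, 3.72 ± 0.26 (SE) (adjusted p = 0.00370). Wee1, a kinase that holds back entry into mitosis, rose by 1.91 ± 0.15 (SE) (adjusted p = 0.00562), and Rgs16, a regulator of G-protein signalling, by 2.19 ± 0.38 (SE) (adjusted p = 0.033, and 0.077 without ZT0 replicate 2). Together 6 of 8 genes rose and none fell. Lpin1, a phosphatidate phosphatase, measured 4.08, 9.79 and 15.4 FPKM at ZT0 and 62.6, 21.4 and 94.1 FPKM at ZT12 and had a difference of 2.41 ± 0.62 (SE) with an adjusted p of 0.080, and Klf10 gave 0.44 ± 0.39 (SE) (adjusted p = 0.54).

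**Figure D1:**
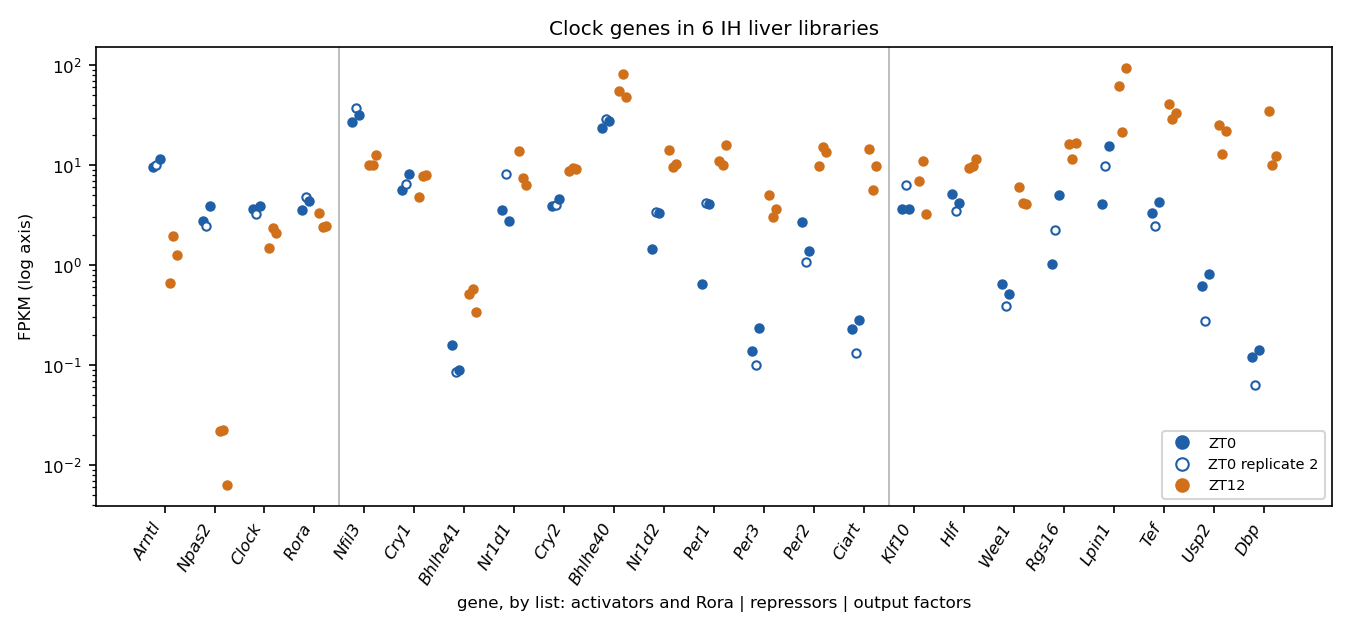
FPKM (log axis) of 23 clock genes in the 6 IH libraries, with ZT0 in blue (replicate 2 as open circles) and ZT12 in orange, and vertical lines between the lists. Dbp, Ciart and Usp2 stand wholly higher at ZT12, Arntl and Npas2 wholly lower, and Cry1 and Nr1d1 overlap.

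The elements these factors bind were looked up in RefSeq promoters (GRCm38.p6), which run from 250 bases before a gene's start to 50 after it and were listed for 121 of the 158 higher genes, 345 of the 462 lower genes and 9981 of all genes tested. The windows below were chosen because their genes are clock or sterol genes called here and the letters stand before a RefSeq start, and capitals mark the motif. Ciart carries 3 copies of the E-box CACGTG, Tef and Bhlhe41 1 copy each, Per3 2 copies of the D-box TTATGTAA, Nfil3 the ROR element TAGGTCA on the opposite strand, and Hmgcs1 the sterol element TCACNCCAC.
Ciart (chr3:95882242-95882369, minus strand): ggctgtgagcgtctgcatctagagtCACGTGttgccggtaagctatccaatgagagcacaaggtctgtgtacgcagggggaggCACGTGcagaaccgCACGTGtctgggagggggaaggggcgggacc
Tef (chr15:81811251-81811306, plus strand): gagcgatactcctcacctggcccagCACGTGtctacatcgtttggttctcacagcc
Bhlhe41 (chr6:145865543-145865598, minus strand): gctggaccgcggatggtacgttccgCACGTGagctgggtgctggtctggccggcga
Per3 (chr4:151044791-151044895, minus strand): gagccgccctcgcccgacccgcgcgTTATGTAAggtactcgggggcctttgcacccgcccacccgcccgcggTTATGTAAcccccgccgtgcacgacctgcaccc
Nfil3 (chr13:52981040-52981061, minus strand): cgctcggaacTGACCTActaac
Hmgcs1 (chr13:119690189-119690247, plus strand): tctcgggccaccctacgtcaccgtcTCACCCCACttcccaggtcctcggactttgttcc

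The elements begin 116, 58 and 44 bases before the RefSeq start in Ciart, 138 in Tef (at 1 of its RefSeq starts), 153 in Bhlhe41, 205 and 158 in Per3, 12 in Nfil3 and 137 in Hmgcs1. The Nfil3 window lies inside the gene as annotated by GENCODE M21 (chr13:52967209-52981073, minus strand), so its element does not stand before that start. Both strands were searched, and none of the motifs contains another. The D-box, as TTATGTAA or TTACGTAA, was in the promoters of 8 of the 121 higher genes (6.61%), Per3, Ak4, Coq10b, Gde1, Gm19522, Homer2, Ipo5 and Trak1, in 0 of the 345 lower genes and in 1% of the 9981 genes. TAGGTCA was in 2 higher genes (1.65%), 18 lower genes (5.22%), Arntl and Nfil3 among them, and 2.56% of all. CACGTG was in 22 higher genes (18.2%), 50 lower genes (14.5%) and 11.7% of all, and TCACNCCAC in 4 (3.31%), 8 (2.32%) and 1.47%. Of all 32851 promoters in the table, 1.06%, 2.61%, 7.15% and 1.24% held the D-box, ROR element, E-box and sterol element. By list, CACGTG was in 4 of 9 clock repressors with a listed promoter, 1 of 6 output factors and 5 of 19 sterol genes. The D-box was in 1 of the 9 repressors and 0 of the 6 output factors. TAGGTCA was in 1 of 9 repressors and 1 of 4 activators and ROR receptors, and TCACNCCAC in 1 of 19 sterol genes, Hmgcs1. The windows thus show members that hold a motif, which most members of these lists did not. These shares are descriptions, and a match is not a binding site.

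Cholesterol synthesis was lower at ZT12 along the pathway. Of 26 genes tested, 14 fell, none rose and 23 had a negative difference, with a median of -0.93. Hmgcs1 (chr13:119690379-119708260, GRCm38), the enzyme that makes HMG-CoA, measured 124, 222 and 174 FPKM at ZT0 and 28.3, 40.1 and 18.3 FPKM at ZT12, a mean 6.00-fold lower without overlap (log2 difference -2.57 ± 0.32 (SE), adjusted p = 0.013). Mvk, mevalonate kinase, measured 16.6, 23.3 and 21.7 FPKM at ZT0 and 6.78, 7.71 and 5.87 FPKM at ZT12. Dhcr7, which catalyses the last step to cholesterol, measured 48.9, 78.9 and 69.5 FPKM at ZT0 and 25.2, 25.4 and 19.0 FPKM at ZT12. All 3 ZT12 values lay below all ZT0 values in both genes, with log2 differences of -1.46 ± 0.15 (SE) and -1.45 ± 0.20 (SE) (adjusted p = 0.010 and 0.018). Mvd, Idi1, Nsdhl, Pmvk, Fdps, Msmo1, Fdft1, Sc5d, Acat2, Hsd17b7 and Srebf2 also fell, with differences from -1.40 (Mvd) to -0.64 (Srebf2, the sterol-sensing transcription factor SREBP2).

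The number of sterol genes called depended on the libraries. With ZT0 replicate 2 left out 3 were called lower (Hmgcs1, Mvk and Dhcr7), with ZT0 replicate 1 left out 10, and with ZT0 replicate 3 left out 2. With ZT12 replicate 2 left out 6 were called, and with ZT12 replicate 1 or replicate 3 left out none. The spread over 18 IH libraries gave 19, beside 14.9% of all genes. Over 17 without ZT0 replicate 2 it also gave 19, beside 14.4% of all genes. Under the median of ratios 8 were called lower. The list median was -0.84 without ZT0 replicate 2.

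Fatty acid synthesis was divided. Of 27 genes 2 rose and 6 fell. Elovl3 (chr19:46131897-46135694, GRCm38), an elongase of very long fatty acids, measured 249.6, 148 and 416 FPKM at ZT0 and 6.11, 9.13 and 26.1 FPKM at ZT12, at a mean 19.7-fold lower and with the largest log2 fall among the 620 genes (log2 difference -4.32 ± 0.56 (SE), adjusted p = 0.015). Insig2, which holds SREBP precursors in the endoplasmic reticulum, measured 63.1, 145 and 116 FPKM at ZT0 and 11.8, 16.0 and 19.2 FPKM at ZT12. Elovl5, an elongase of polyunsaturated fatty acids, measured 195, 214 and 227 FPKM at ZT0 and 56.0, 67.3 and 46.5 FPKM at ZT12. Insig2 and Elovl5 thus lay lower in all ZT12 mice, with log2 differences of -2.66 ± 0.32 (SE) and -1.90 ± 0.15 (SE) (adjusted p = 0.013 and 0.00571). Acss2, which makes acetyl-CoA from acetate, fell with a log2 difference of -1.68 ± 0.22 (SE) (adjusted p = 0.015), and G6pdx and Gpam fell with log2 differences of -0.63 ± 0.13 (SE) and -0.51 ± 0.10 (SE) (adjusted p = 0.050 and 0.047, and 0.10 and 0.086 without ZT0 replicate 2).

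Thrsp and Elovl6 went up instead. Thrsp, a nuclear protein linked to lipogenesis, measured 281, 175 and 299.5 FPKM at ZT0 and 885, 1080 and 1199 FPKM at ZT12 (log2 difference 2.09 ± 0.23 (SE), adjusted p = 0.010). Elovl6, which elongates palmitate, measured 14.1, 12.5 and 14.3 FPKM at ZT0 and 29.8, 29.6 and 32.2 FPKM at ZT12 (log2 difference 1.11 ± 0.09 (SE), adjusted p = 0.00591), and it was called whichever library was left out. Fasn, the fatty acid synthase, measured 102, 65.5 and 67.4 FPKM at ZT0 and 93.5, 121 and 68.5 FPKM at ZT12 with a difference of 0.26 ± 0.25 (SE) (adjusted p = 0.59), and Srebf1 gave 0.60 ± 0.22 (SE) (adjusted p = 0.17). Without ZT0 replicate 2 these differences were 0.14 and 0.39. The Fasn values of the times overlapped, and the highest Srebf1 value at ZT0 was 67.3 FPKM against a lowest of 67.7 FPKM at ZT12.

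Bile acid genes gave 3 falls and no rise among 27, beside 3.5% and 1.2% of all genes. With the spread over 18 libraries 6 fell and 3 rose, beside 14.9% and 7.11% of all genes. Hsd3b7, an early enzyme of bile acid synthesis, measured 272, 240 and 351 FPKM at ZT0 and 77.3, 96.1 and 83.8 FPKM at ZT12 (log2 difference -1.72 ± 0.16 (SE), adjusted p = 0.00817). Abcb11, the bile salt export pump, measured 98.7, 87.2 and 123 FPKM at ZT0 and 35.2, 36.6 and 31.0 FPKM at ZT12 (log2 difference -1.55 ± 0.14 (SE), adjusted p = 0.00817). Both were separated in all mice. Acox2, which shortens the side chain in peroxisomes, fell with a log2 difference of -0.96 ± 0.17 (SE) (adjusted p = 0.033, and 0.056 without ZT0 replicate 2). Cyp7a1, the rate-limiting enzyme of the classic pathway, measured 17.2, 3.5 and 11.9 FPKM at ZT0 and 22.6, 28.0 and 28.5 FPKM at ZT12 and was above every ZT0 value in every ZT12 mouse, with a difference of 1.42 ± 0.48 (SE) that missed the threshold (adjusted p = 0.15) and was 0.83 without ZT0 replicate 2. Among 36 genes of fatty acid oxidation and ketogenesis, the nuclear receptor gene Ppara rose by 0.70 ± 0.10 (SE) (adjusted p = 0.017) and the lipid droplet gene Plin2 fell with a log2 difference of -1.38 ± 0.24 (SE) (adjusted p = 0.033, and 0.076 without ZT0 replicate 2). None of the 20 lipoprotein genes was called by limma on 6 libraries. With the spread over 18 libraries 1 was higher and 3 lower, beside 7.11% and 14.9% of all genes.

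Drug-metabolising genes that changed were all higher at ZT12, 7 of 46. Cyp2a5, a coumarin hydroxylase, measured 54.1, 30.1 and 109 FPKM at ZT0 and 530.4, 662 and 649 FPKM at ZT12. Cyp2a4, a near-identical neighbour with which it may share reads, measured 1.77, 0.892 and 3.59 FPKM at ZT0 and 19.4, 23.5 and 22.4 FPKM at ZT12. Both were well apart between the times, with log2 differences of 3.42 ± 0.42 (SE) and 2.97 ± 0.30 (SE) (adjusted p = 0.013 and 0.00985). Por, the reductase that passes electrons to the cytochrome P450 enzymes, measured 46.5, 63.5 and 72.0 FPKM at ZT0 and 245, 198 and 279 FPKM at ZT12 (log2 difference 1.98 ± 0.20 (SE), adjusted p = 0.00956). Nr1i3, the gene of the xenobiotic sensor CAR, and Cyp2e1, an ethanol-oxidising P450, rose by 0.99 ± 0.19 (SE) and 0.93 ± 0.15 (SE) (adjusted p = 0.039 and 0.028), the former with 0.085 without ZT0 replicate 2. Ces2c and Ugt1a1 made up the rest, Ces2c with an adjusted p of 0.071 without ZT0 replicate 2. The list median was 0.29, and none of the 7 was called without ZT12 replicate 3 in a fit of 5 libraries. With the spread over 18 libraries 11 rose and 3 fell, beside 7.11% and 14.9% of all genes.

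Calls among genes of glucose metabolism went in both directions. Gys2, liver glycogen synthase, measured 34.7, 23.9 and 39.6 FPKM at ZT0 and 138, 123 and 122 FPKM at ZT12, all ZT12 values above all ZT0 values (log2 difference 1.96 ± 0.18 (SE), adjusted p = 0.00817). Ppp1r3c, which targets a phosphatase to glycogen, measured 35.2, 32.5 and 36.8 FPKM at ZT0 and 4.75, 9.87 and 8.59 FPKM at ZT12 and fell with a log2 difference of -2.09 ± 0.23 (SE) (adjusted p = 0.010). These were the 2 of 21 glycogen genes called. Pygl, the phosphorylase that breaks glycogen down, gave -0.10 ± 0.24 (SE) (adjusted p = 0.83), and -0.34 without ZT0 replicate 2 (adjusted p = 0.29). Slc37a4, the glucose-6-phosphate transporter, was the 1 of 15 gluconeogenic genes called and rose by 1.10 ± 0.12 (SE) (adjusted p = 0.010). With the spread over 18 libraries 3 glycogen genes were higher and 4 lower, and 5 gluconeogenic genes were higher and none lower. Of all genes 7.11% were higher and 14.9% lower in that fit.

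Pck1, G6pc and Fbp1, the named enzymes of gluconeogenesis, did not pass the test on 6 libraries. Pck1 measured 134, 845 and 802 FPKM at ZT0 and 618, 495 and 1243 FPKM at ZT12, with ZT0 replicate 1 far below the other ZT0 mice (adjusted p = 0.62). G6pc had adjusted p = 0.59 and Fbp1, at 495, 489.8 and 572 FPKM at ZT0 and 653, 645 and 696 FPKM at ZT12, had a difference of 0.36 ± 0.12 (SE) with adjusted p = 0.13. With the spread over 18 libraries Fbp1 was called (adjusted p = 0.0042 by limma). Of 26 genes of glycolysis and fructose sensing, Pfkfb3, Pklr, Tkfc and Gpi1 rose by 1.52, 1.37, 1.16 and 0.83 (Pfkfb3 with an adjusted p of 0.085 without ZT0 replicate 2). Pdk4, the kinase that shuts off pyruvate dehydrogenase, fell, at 3.30, 4.13 and 4.45 FPKM at ZT0 and 0.568, 1.03 and 1.19 FPKM at ZT12 (log2 difference -1.37 ± 0.16 (SE), adjusted p = 0.010). Pklr, liver pyruvate kinase, measured 88.4, 53.8 and 92.8 FPKM at ZT0 and 197, 171 and 233 FPKM at ZT12 (adjusted p = 0.030). Ldha, a lactate dehydrogenase subunit, gave -0.49 ± 0.23 (SE) (adjusted p = 0.27), and -0.27 without ZT0 replicate 2. Its adjusted p by limma was 0.045 with the spread over 18 libraries, and 0.18 over 17 without ZT0 replicate 2. Over 18 libraries 8 of the 26 glycolysis and fructose genes were higher and 3 lower, beside 7.11% and 14.9% of all genes.

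Genes of amino acid breakdown fell where they were called, and NAD genes went both ways. Amt, of the glycine cleavage system, measured 26.6, 29.7 and 34.5 FPKM at ZT0 and 7.33, 7.63 and 8.26 FPKM at ZT12. Cbs, cystathionine β-synthase, measured 221, 208 and 233 FPKM at ZT0 and 74.7, 70.9 and 60.6 FPKM at ZT12. Both were among the 5 lower genes of smallest p, with log2 differences of -1.83 ± 0.11 (SE) and -1.67 ± 0.11 (SE) (adjusted p = 0.00370 for each), and were called whichever library was left out. Hal and Kynu, which start histidine breakdown and cleave kynurenine, fell with log2 differences of -1.27 ± 0.22 (SE) and -0.97 ± 0.12 (SE) (adjusted p = 0.032 and 0.012), so 4 of 45 genes of the urea cycle and amino acid breakdown fell and none rose, and Cps1, which starts the urea cycle, had an adjusted p of 1.00. Nampt, the rate-limiting enzyme of NAD salvage, measured 7.61, 6.68 and 9.73 FPKM at ZT0 and 30.0, 20.9 and 29.2 FPKM at ZT12 and rose by 1.62 ± 0.18 (SE) (adjusted p = 0.010). Qprt and Sirt5 fell with log2 differences of -0.68 ± 0.09 (SE) and -0.52 ± 0.09 (SE) (adjusted p = 0.017 and 0.030, the latter 0.054 without ZT0 replicate 2). Of 17 NAD genes 1 thus rose and 2 fell, and of all genes 1.2% rose and 3.5% fell. With the spread over 18 libraries 4 amino acid genes were higher and 13 lower, and 3 NAD genes higher and 4 lower. Of all genes 7.11% were higher and 14.9% lower there.

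In the TCA cycle, 1 of 18 genes was called, citrate synthase (Cs), at 58.6, 52.6 and 53.5 FPKM at ZT0 and 39.4, 39.6 and 35.6 FPKM at ZT12 (log2 difference -0.51 ± 0.09 (SE), adjusted p = 0.032, and 0.052 without ZT0 replicate 2). Idh3a gave 0.35 ± 0.12 (SE) (adjusted p = 0.14). Its adjusted p by limma was 0.022 with the spread over 18 libraries, and 0.078 over 17 without ZT0 replicate 2. Over 18 libraries 5 of the 18 TCA genes were higher and 1 lower, beside 7.11% and 14.9% of all genes. None of 86 respiratory chain genes was called by limma, nor of 77 mitochondrial ribosomal genes, where the medians were 0.11 and 0.01. Cox6a1 measured 571, 465 and 586 FPKM at ZT0 and 591, 582 and 556 FPKM at ZT12 (log2 difference 0.10 ± 0.13 (SE), adjusted p = 0.68). With the spread over 18 libraries 6 respiratory chain genes were called higher and 2 lower, and 3 mitochondrial ribosomal genes in each direction, which are shares no higher than those of all genes (7.11% higher and 14.9% lower).

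The HIF list, which holds HIF subunits and oxygen sensors beside targets, was mixed at ZT12. Of 30 genes tested 3 rose, 1 fell and the median was 0.02, where 1.2% of all genes rose and 3.5% fell. With the spread over 18 libraries 6 rose and 3 fell, beside 7.11% and 14.9% of all genes. Bnip3, a mitophagy receptor, measured 59.1, 46.1 and 59.6 FPKM at ZT0 and 146, 119 and 142 FPKM at ZT12. Ak4, a mitochondrial adenylate kinase, measured 8.40, 7.20 and 10.5 FPKM at ZT0 and 20.9, 18.2 and 20.7 FPKM at ZT12. Tfrc, the transferrin receptor, measured 3.42, 3.22 and 3.54 FPKM at ZT0 and 6.89, 10.1 and 6.71 FPKM at ZT12. Each was higher in all ZT12 mice, with log2 differences of 1.29 ± 0.14 (SE), 1.12 ± 0.14 (SE) and 1.00 ± 0.15 (SE) (adjusted p = 0.010, 0.013 and 0.024), and Tfrc was not called without ZT0 replicate 2 (adjusted p = 0.062). Ndrg1 measured 6.85, 5.72 and 12.9 FPKM at ZT0 and 1.76, 1.31 and 1.81 FPKM at ZT12 and fell with a log2 difference of -1.78 ± 0.27 (SE) (adjusted p = 0.022). Hif1a itself gave -0.03 ± 0.10 (SE) (adjusted p = 0.91). In normoxia the differences of Bnip3, Ak4, Tfrc and Ndrg1 were 1.02, 0.59, 0.82 and -2.41, none of them called. Without normoxia ZT12 replicate 2 they were 1.42, 1.03, 0.97 and -2.21, and all but Ndrg1 were called.

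Glucocorticoid targets gave 2 rises and 1 fall among 21, beside 1.2% and 3.5% of all genes. With the spread over 18 libraries 3 rose and 1 fell, beside 7.11% and 14.9% of all genes. Fkbp5, a chaperone partner of the glucocorticoid receptor, measured 4.8, 5.32 and 5.25 FPKM at ZT0 and 21.1, 20.6 and 32.2 FPKM at ZT12 and rose by 2.04 ± 0.17 (SE) (adjusted p = 0.00730), whichever library was left out. Serpina6, which encodes corticosteroid-binding globulin, measured 64.1, 43.4 and 79.5 FPKM at ZT0 and 187, 179 and 136 FPKM at ZT12 (log2 difference 1.44 ± 0.24 (SE), adjusted p = 0.029). Cdkn1a, the cell cycle inhibitor p21, went the other way, at 8.89, 18.1 and 11.4 FPKM at ZT0 and 0.565, 1.42 and 1.96 FPKM at ZT12 (log2 difference -2.57 ± 0.31 (SE), adjusted p = 0.013). The receptor gene Nr3c1 gave 0.14 ± 0.12 (SE) (adjusted p = 0.54). In the list of CREB and immediate early genes, 1 of 27 was called, Crem, at 12.1, 12.4 and 15.3 FPKM at ZT0 and 8.44, 7.36 and 6.22 FPKM at ZT12 (log2 difference -0.78 ± 0.14 (SE), adjusted p = 0.034, and 0.065 without ZT0 replicate 2), with a list median of -0.28. Of all genes 3.5% were called lower. With the spread over 18 libraries 6 of the 27 were lower and none higher, beside 14.9% and 7.11% of all genes. In the insulin, growth hormone and IGF list, Igfbp4 rose by 0.83 ± 0.11 (SE) and Enho and Grb14 fell with log2 differences of -0.69 ± 0.09 (SE) and -0.65 ± 0.09 (SE) (adjusted p = 0.017, 0.014 and 0.020), while Insr gave -0.12 ± 0.11 (SE) (adjusted p = 0.57).

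Rbm3, an RNA-binding protein induced by cold, rose, at 14.7, 22.5 and 13.6 FPKM at ZT0 and 31.5, 31.0 and 31.9 FPKM at ZT12 (log2 difference 0.89 ± 0.18 (SE), adjusted p = 0.046), and its relative Cirbp gave -0.17 ± 0.23 (SE) (adjusted p = 0.69). Of 27 heat shock chaperones Dnajb6 rose (0.69 ± 0.08 (SE), adjusted p = 0.012), with 22 of 27 differences positive and a median of 0.13, and Hsf1 gave 0.08 ± 0.09 (SE) (adjusted p = 0.66). No gene of the unfolded protein response (27 tested) or of autophagy (30 tested) was called by limma, and with the spread over 18 libraries 1 of the former was higher and 1 and 5 of the latter were higher and lower, beside 7.11% and 14.9% of all genes. Hspa5 spread widely within each time, at 553, 822 and 265 FPKM at ZT0 and 341, 709 and 467 FPKM at ZT12. Ncl was the 1 of 43 ribosome biogenesis genes called (0.65 ± 0.10 (SE), adjusted p = 0.026, and 0.060 without ZT0 replicate 2), and 40 of the 43 had positive differences. Over all genes tested, 5411 of 13215 differences were positive. Of 101 symbols with ribosomal protein prefixes, 4 were called, of which Rps27 (0.72 ± 0.09 (SE)) is a ribosomal protein gene, Rps6kb1 and Rps6kl1 encode kinases and Rplp2-ps1 is a pseudogene. Without ZT0 replicate 2 Rps27 was the 1 of these called, and Rps6kb1, Rps6kl1 and Rplp2-ps1 had adjusted p of 0.090, 0.058 and 0.092. Rps27 was low, at 2.25, 2.06 and 2.34 FPKM at ZT0 and 4.25, 4.73 and 3.97 FPKM at ZT12. With the spread over 18 libraries, which include a mean of 17.0 ± 24.5 FPKM (SD) at ZT16, Rps27 was not called (adjusted p = 0.60 with limma).

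Proteasome subunits had small negative differences in 42 of 49 genes (median -0.16), beside 7782 negative differences among all 13215 genes. Psmb9, Psmd11 and Psmd14 fell with log2 differences of -0.87 ± 0.08 (SE), -0.67 ± 0.12 (SE) and -0.60 ± 0.11 (SE) (adjusted p = 0.00884, 0.036 and 0.036), and without ZT0 replicate 2 the last 2 had 0.072 and 0.077. With the spread over 18 libraries 20 of the 49 were called lower and 2 higher, beside 14.9% and 7.11% of all genes. Sqstm1 was the 1 of 26 NRF2 and antioxidant genes called (-0.71 ± 0.12 (SE), adjusted p = 0.031, and 0.064 without ZT0 replicate 2), and in the cell cycle list Wee1 and Rrm2, a ribonucleotide reductase subunit, rose and Cdkn1a fell among 30, Rrm2 with an adjusted p of 0.066 without ZT0 replicate 2.

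**Figure D2:**
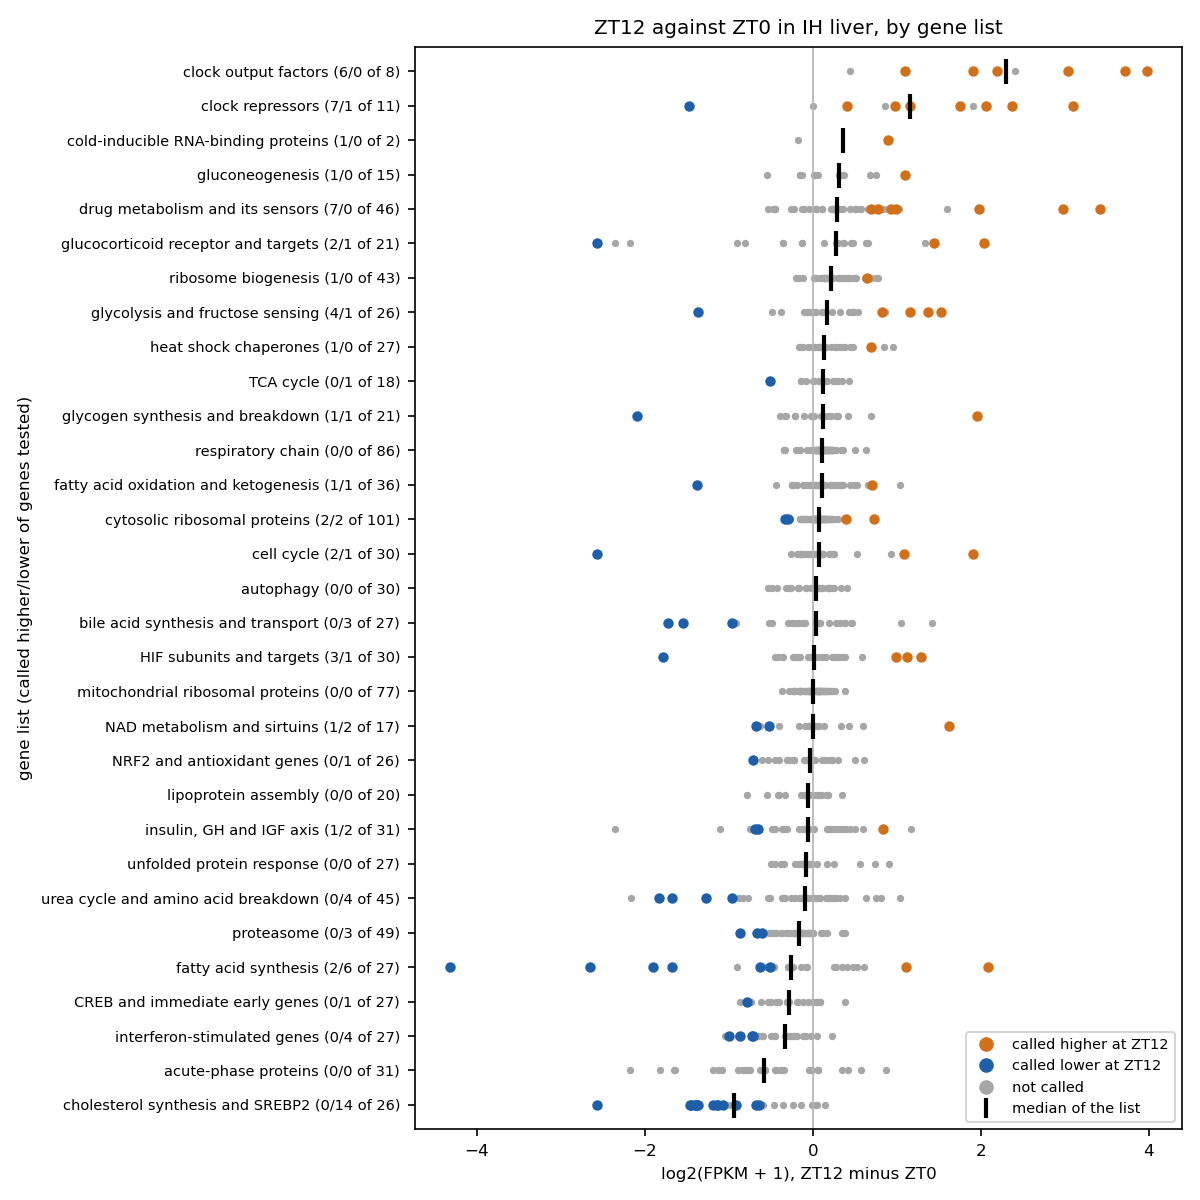
Difference in log2(FPKM + 1), ZT12 minus ZT0, of every tested member of 31 gene lists in IH liver, with called genes in orange (higher) or blue (lower), other genes in grey and a black bar at the median of the list. Clock output factors lie furthest to the right (median 2.30) and cholesterol synthesis furthest to the left (median -0.93), while most other medians lie near 0.

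Acute-phase genes followed the single mouse described above. None of 31 was called by limma, and the list median of -0.58 became 0.18 without ZT0 replicate 2. Saa2 measured 33.8, 24890 and 24.6 FPKM at ZT0 and 30.7, 1465 and 14.6 FPKM at ZT12, and Saa1 had a difference of -1.13 ± 2.40 (SE) (adjusted p = 0.81). With the spread over 18 libraries 5 were called lower and none higher, beside 14.9% and 7.11% of all genes. Over 17 libraries without ZT0 replicate 2 it was 5 higher and 1 lower, beside 5.37% and 14.4% of all genes. The direction of the list thus turned on that mouse. The neutrophil markers S100a8 and S100a9 were also highest there, at 6.04 and 6.91 FPKM, against 0.119 to 1.73 FPKM in the other 5 libraries.

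**Figure D3:**
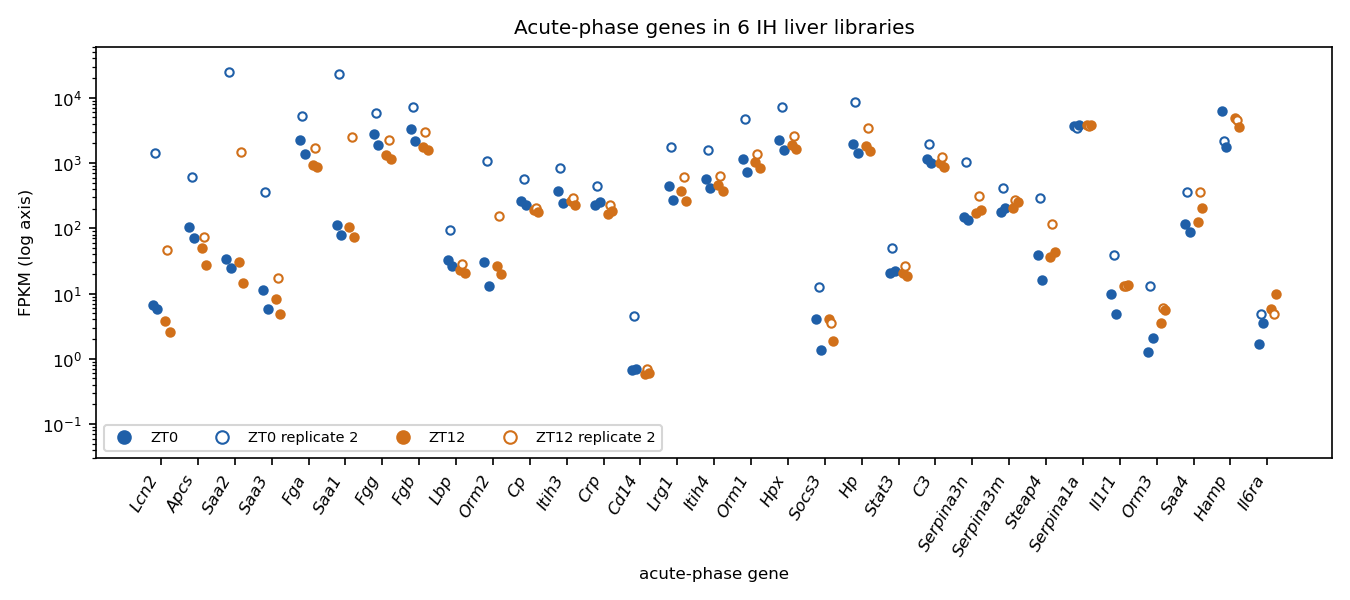
FPKM (log axis) of 31 acute-phase genes in the 6 IH libraries, ZT0 in blue and ZT12 in orange, with replicate 2 of each time as open circles. The open blue circles of ZT0 replicate 2 lie above all other points for 28 genes.

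Interferon-stimulated genes were lower at ZT12 in 25 of 27 differences, with 4 falls and no rise called and a median of -0.34. Over all genes tested, 7782 of 13215 differences were negative. Psmb9, an immunoproteasome subunit, measured 10.4, 10.5 and 11.1 FPKM at ZT0 and 5.81, 5.16 and 5.26 FPKM at ZT12. Lgals3bp, a secreted glycoprotein, measured 37.5, 35.9 and 38.2 FPKM at ZT0 and 21.7, 25.4 and 19.8 FPKM at ZT12. Both were separated in all mice and fell with log2 differences of -0.87 ± 0.08 (SE) and -0.72 ± 0.11 (SE) (adjusted p = 0.00884 and 0.022). Oasl1 and Tap1, an RNA-sensing relative of the OAS enzymes and a peptide transporter, fell with log2 differences of -0.99 ± 0.20 (SE) and -0.71 ± 0.15 (SE) (adjusted p = 0.045 and 0.048, the latter 0.11 without ZT0 replicate 2). With the spread over 18 libraries 12 were called lower and none higher, beside 14.9% and 7.11% of all genes.

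Markers of other cell types differed too. Of 10 markers of stellate cells and fibroblasts, 3 fell, none rose and 9 had a negative difference, beside 7782 of all 13215 genes. The summed FPKM of the 10 was 70.9 to 93.7 at ZT0 and 56.7 to 71.3 at ZT12. Acta2, smooth muscle actin, measured 1.77, 2.18 and 1.76 FPKM at ZT0 and 0.601, 0.705 and 0.804 FPKM at ZT12. Col3a1, a fibrillar collagen, measured 5.30, 6.91 and 6.79 FPKM at ZT0 and 2.61, 2.87 and 3.34 FPKM at ZT12. Pdgfrb, a growth factor receptor, measured 1.67, 1.40 and 1.82 FPKM at ZT0 and 0.856, 0.785 and 0.843 FPKM at ZT12. These 3 fell with log2 differences of -0.77 ± 0.09 (SE), -0.89 ± 0.13 (SE) and -0.52 ± 0.08 (SE) (adjusted p = 0.011, 0.019 and 0.024), and Col3a1 had 0.051 without ZT0 replicate 2. Reln and Lrat, which mark quiescent stellate cells, gave -0.05 and 0.28 (adjusted p = 0.88 and 0.18). In bulk liver, fewer cells of a type and less RNA per cell cannot be told apart.

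The 11 Kupffer cell and macrophage markers and the 9 of sinusoidal endothelium all had negative differences with none called by limma or with the spread over 18 libraries (summed FPKM of 69.1 to 122 against 55.8 to 79.2, and of 59.3 to 82 against 59.9 to 66.9). Negative differences were found in 7782 of all 13215 genes. Of 6 cholangiocyte markers none was called by limma on 6 libraries and 5 had negative differences. With the spread over 18 libraries 2 were lower, beside 14.9% of all genes. The summed FPKM of the 6 did not overlap, at 34.9 to 67.2 at ZT0 and 22.5 to 30.6 at ZT12. Most of each sum was Spp1, at 28.1, 60.6 and 41.4 FPKM at ZT0 and 19.0, 24.3 and 26.2 FPKM at ZT12. Spp1 was not called (adjusted p = 0.14 with limma), and 20.1% of all genes were likewise lower without overlap. Fabp4 was the 1 adipocyte marker called, at 9.81, 13.3 and 12.7 FPKM at ZT0 and 7.52, 6.16 and 7.31 FPKM at ZT12 (log2 difference -0.69 ± 0.14 (SE), adjusted p = 0.044, and 0.092 without ZT0 replicate 2), with Adipoq and Lep listed at 0 in all 6. The part of these cell types in the lower genes was not tested.

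Genes outside the lists were among those with the largest or clearest differences. Aqp8, a water channel, measured 89.2, 65.3 and 193 FPKM at ZT0 and 8.46, 15.0 and 6.01 FPKM at ZT12 (log2 difference -3.36 ± 0.45 (SE), adjusted p = 0.017). The β-tubulin gene Tubb2a measured 163, 156 and 165 FPKM at ZT0 and 9.39, 37.5 and 15.3 FPKM at ZT12. Its near-identical neighbour Tubb2b, with which it may share reads, measured 23.4, 22.4 and 23.9 FPKM at ZT0 and 1.39, 5.60 and 2.25 FPKM at ZT12. The 3 ZT0 mice lay close together, while ZT12 replicate 2 held the highest ZT12 value of both, which fell with log2 differences of -3.12 ± 0.44 (SE) and -2.70 ± 0.34 (SE) (adjusted p = 0.018 and 0.015). Spon2, a secreted matrix protein, measured 7.32, 7.13 and 7.72 FPKM at ZT0 and 0.509, 0.662 and 0.495 FPKM at ZT12 and had the smallest adjusted p of all genes, 4.7e-04 (log2 difference -2.43 ± 0.09 (SE)). Ppard, the gene of the nuclear receptor PPARδ, measured 27.0, 18.2 and 22.7 FPKM at ZT0 and 3.24, 3.49 and 3.71 FPKM at ZT12 (log2 difference -2.38 ± 0.15 (SE), adjusted p = 0.00370). Crot, which makes carnitine esters in peroxisomes, measured 179, 201 and 185 FPKM at ZT0 and 44.8, 50.7 and 45.5 FPKM at ZT12 (log2 difference -1.98 ± 0.09 (SE), adjusted p = 0.00172), and Spon2, Ppard and Crot were called whichever library was left out.

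Among the higher genes outside the lists, Tsku, a secreted protein of the liver, measured 30.0, 10.3 and 15.8 FPKM at ZT0 and 156, 128 and 132 FPKM at ZT12 (log2 difference 2.94 ± 0.34 (SE), adjusted p = 0.011). Hcn3, a cation channel, measured 2.05, 0.809 and 2.32 FPKM at ZT0 and 12.9, 10.2 and 16.2 FPKM at ZT12 (log2 difference 2.40 ± 0.27 (SE), adjusted p = 0.010). Hsd17b6, a steroid dehydrogenase, measured 28.4, 9.86 and 35.6 FPKM at ZT0 and 156, 85.0 and 106 FPKM at ZT12 (log2 difference 2.31 ± 0.47 (SE), adjusted p = 0.045). Hsd17b6 was called in 1 of the 6 fits that left out 1 library, and Tsku and Hcn3 in 4. In all 3 genes ZT0 replicate 2 held the lowest value, and no ZT12 value came within the ZT0 range. The non-coding transcript 1700001L05Rik, among the 5 higher genes of smallest p, was low at both times, at 0.327, 0.306 and 0.440 FPKM at ZT0 and 1.30, 1.32 and 1.40 FPKM at ZT12 (log2 difference 0.79 ± 0.06 (SE), adjusted p = 0.00571).

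Over the 6 times sampled in IH, the 158 higher genes had their highest mean at ZT12 in 89, at ZT8 in 51 and at ZT16 in 16, and their lowest at ZT0 in 99. The 462 lower genes had their lowest mean at ZT12 in 365 and at ZT8 in 79, and their highest at ZT0 in 236, ZT4 in 113 and ZT20 in 95. Dbp had a mean of 92.8 ± 7.48 FPKM (SD, n = 3) at ZT8 and of 19.2 ± 13.8 FPKM at ZT12. Arntl was at 0.243 ± 0.0628 FPKM at ZT8 and 1.30 ± 0.647 FPKM at ZT12, so its lowest mean came before ZT12. Hmgcs1 had means of 173 ± 49.1, 86.2 ± 20.1, 58.2 ± 14.6, 28.9 ± 10.9, 66.0 ± 5.46 and 135 ± 38.0 FPKM from ZT0 to ZT20. Hmgcs1 thus had its highest mean at ZT0 and its lowest at ZT12, whereas Dbp and Cyp2a5 had their highest mean at ZT8. Cyp2a5 had 707 ± 91.4 FPKM at ZT8 and 614 ± 72.4 FPKM at ZT12.

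**Figure D4:**
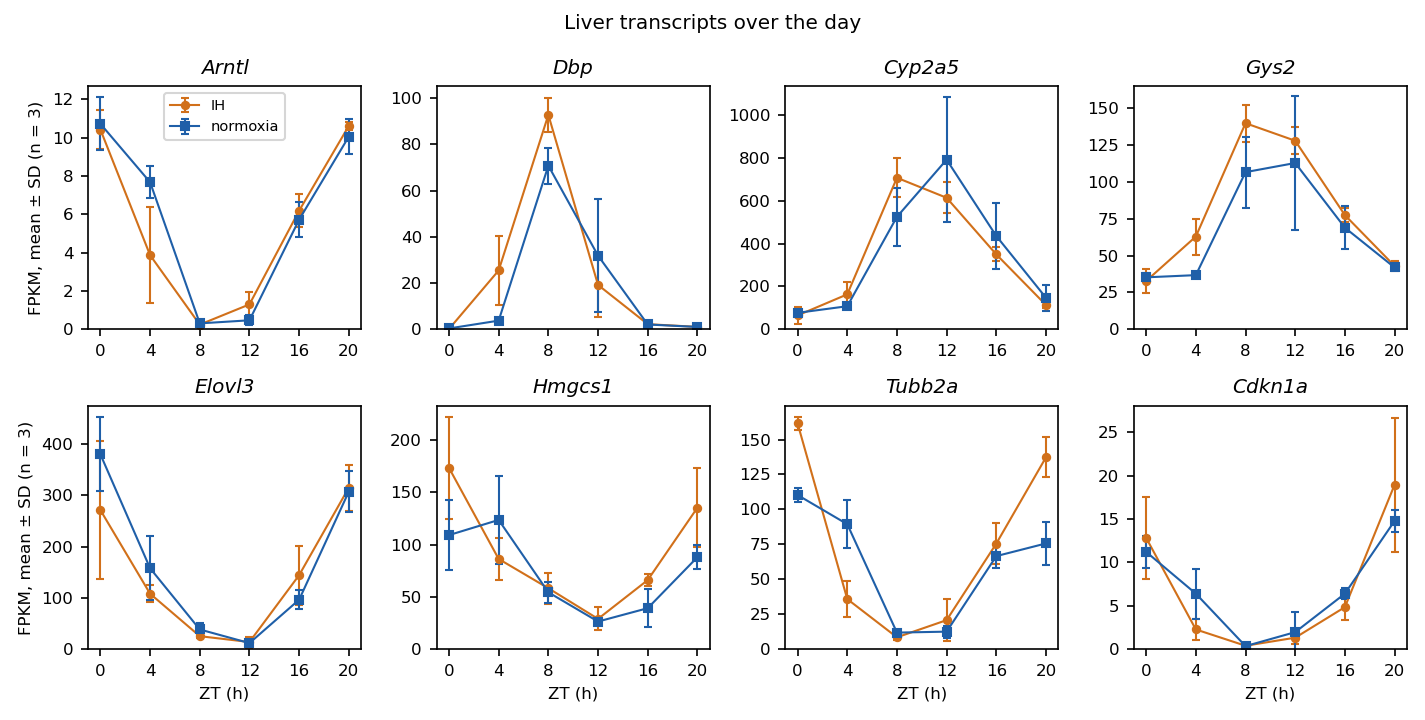
Mean FPKM ± SD of 3 mice at 6 times for 8 genes named in the text, IH in orange circles and normoxia in blue squares, against ZT in hours. Dbp, Cyp2a5 and Gys2 have their highest IH mean at ZT8, and Elovl3 and Hmgcs1 have their lowest IH mean at ZT12.

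The same pair of times in normoxia, with 3 mice each, gave 47 higher (0.356%) and 180 lower genes (1.36%). Normoxia ZT12 replicate 2 had a Saa1 of 20546 FPKM and an FPKM sum of 808274, and without it 486 (3.68%) were higher and 729 (5.52%) lower. Of the genes called in IH, 152 of the 158 higher (96.2%) and 445 of the 462 lower genes (96.3%) had the same sign in normoxia, and 26 and 94 were called there in the same direction, or 102 and 225 without normoxia ZT12 replicate 2. None was called in the opposite direction. Median differences in normoxia were 0.61 and -0.61 for these genes, which were chosen on IH, where the medians were 0.84 and -0.68.

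Whether the ZT12 to ZT0 difference itself differed between IH and normoxia was tested over the 12 libraries. No gene passed with limma (0%), 611 genes had an unadjusted p under 0.05, and the smallest adjusted p was 0.82. With the spread over all 36 libraries, 4 genes passed, Gm15421, Rpl22l1, Ubald2 and Zfp563. The gene of smallest p was Chrna4, a subunit of the nicotinic acetylcholine receptor. In IH it measured 8.30, 9.17 and 6.54 FPKM at ZT0 and 0.773, 1.29 and 0.484 FPKM at ZT12, a log2 difference of -2.30 ± 0.19 (SE) that was called whichever library was left out. In normoxia it measured 0.322, 1.95 and 1.57 FPKM at ZT0 and 1.42, 2.43 and 0.805 FPKM at ZT12, a log2 difference of 0.19, or -0.05 without normoxia ZT12 replicate 2. The difference between the conditions was -2.49 ± 0.44 (SE) with an unadjusted p of 1.4e-04 and an adjusted p of 0.82. Dok1, Slc44a3, Gm15421 and Hist1h1c came next, with the same adjusted p.

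For several clock genes the 2 conditions gave different values, none of which passed the test of the difference. Per2 differed by 2.38 in IH and 1.10 in normoxia, with an unadjusted limma p of 0.016 for the interaction. Hlf differed by 1.09 and 0.25, with 0.041, and its normoxia difference was 0.60 without normoxia ZT12 replicate 2. For Nr1d1 and Rgs16 the normoxia difference was the larger one, 2.2 against 0.85 and 3.72 against 2.19, with an unadjusted limma p of 0.029 and 0.026. All 4 had an adjusted p of 0.82. Of the 8 transcripts the study plots for these livers, Gys2 was called in IH on 6 libraries, and the other 7 (Pygl, Ldha, Fbp1, Idh3a, Cox6a1, Fasn and Cpt2) were not, with differences from -0.49 to 0.36. With the spread over 18 libraries Fbp1, Idh3a and Ldha had adjusted p of 0.0042, 0.022 and 0.045 by limma. Over 17 without ZT0 replicate 2 these were 0.013, 0.078 and 0.18. Fbp1 and Idh3a were higher at ZT12 without overlap, as were 9.8% of all genes. Cpt2 differed by -0.18 in IH and -0.65 in normoxia, with an unadjusted limma p of 0.029 for the interaction and an adjusted p of 0.82. Cox6a1 and Fasn are not compared between the conditions, since their plotted profiles helped to tell which table was which.

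**Figure D5:**
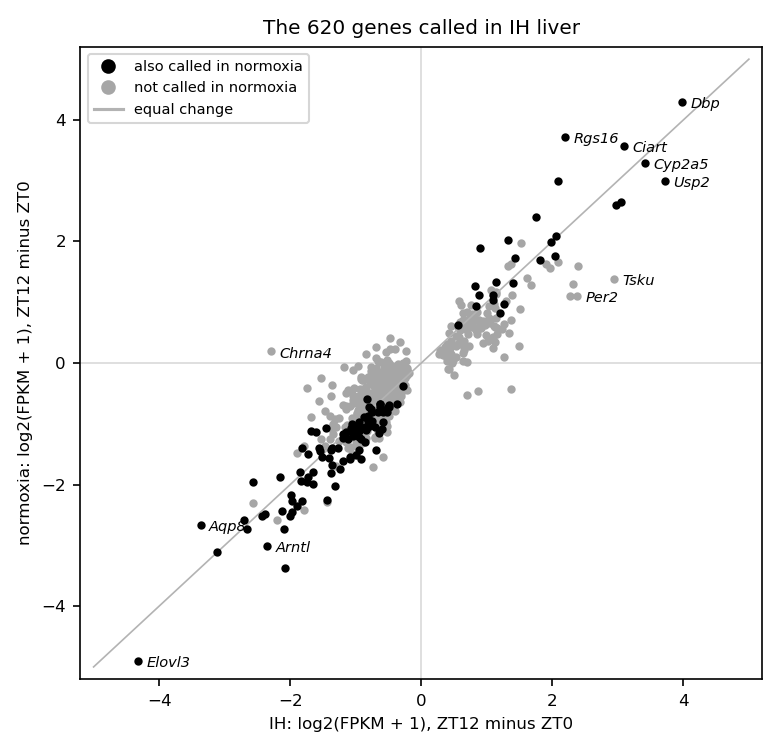
Difference in log2(FPKM + 1), ZT12 minus ZT0, in normoxia against that in IH for the 620 genes called in IH, black where also called in normoxia, with a line of equal change. Points gather along the line, Dbp at the top right and Elovl3 at the bottom left, and Chrna4 lies off it, at -2.30 in IH and 0.19 in normoxia.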

How the data were processed

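Polyadenylated liver RNA was sequenced on a NovaSeq as paired reads of 100 bases from stranded libraries. Per the labels, the authors aligned reads to mm10 with TopHat2 2.1.1 and deposited FPKM per gene and replicate from Cufflinks 2.2.1; the annotation is not given in the sources used here. The deposited tables hold no counts, so depth is unknown and no counting interval is given. Both tables carry the same column names, so the condition of each was taken from its name and from the shapes of profiles the study plots (Cox6a1 and Fasn), which leaves some doubt about which table is which. Of 24346 symbols, 24066 stood on 1 row, and the 13215 whose mean over all 36 libraries reached 0.1 FPKM were tested on log2(FPKM + 1) with limma 3.58.1 (R 4.3.3, moderated with an intensity trend), Benjamini-Hochberg threshold 0.05, on the 6 libraries of a condition or, for the difference between conditions, on 12. The code was tested on simulated data. Figures used matplotlib 3.10.9. Gene positions came from GENCODE M21 (GRCm38).

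Named genes were the 10 largest called differences in each direction, the 5 smallest p in each direction and in the interaction, members of short lists, up to 5 called members of longer lists with their best known gene, and the transcripts the study plots. Members and lists were chosen with earlier results of these data known. A few further genes, marker genes and the promoter motifs were chosen after values were seen. Alternatives changed the pseudocount, filter, scaling, libraries, intensity trend, replicate block and threshold. Some listed genes are not reported here. Mice were sampled once each, so replicates were separate animals.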

Additional observations from a re-analysis of the deposited data

Results flagged for a closer look

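Gm15421, a transcript of low level, had differences of opposite sign in the conditions, with no overlap between ZT0 and ZT12 in either. Neither difference was called (adjusted p = 0.099 in each by limma). The gene was named for its small interaction p, which favours opposite signs. In IH it measured 0.524, 0.787 and 0.839 FPKM at ZT0 and 0.429, 0.363 and 0.420 FPKM at ZT12, with a log2 difference of -0.29 (-0.2852), and in normoxia it measured 0.344, 0.445 and 0.328 FPKM at ZT0 and 0.733, 0.951 and 0.653 FPKM at ZT12, with a log2 difference of 0.37 (0.3719). The test of the difference between the conditions gave an unadjusted p of 2.0e-04 and an adjusted p of 0.82 with limma on 12 libraries, and an adjusted p of 0.00599 with the spread over all 36 libraries. No other named gene met this rule, and groups of 3 libraries were too small for a test of single outlying values.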

How the results depend on the processing

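The 158 higher and 462 lower genes in IH kept their sign in all alternatives where they were tested. Counts stayed within 1.5 times for the pseudocount of 0.1, the minimum mean of 1 FPKM, both rescalings to a common sum or by quantiles, the fit without intensity trend and summed repeated symbols, and under the median of ratios. They became 61 and 128 with no filter on low values, 939 and 1963 with the spread over all 18 IH libraries, 95 and 194 with the replicate block, 368 and 1004 at an unadjusted p of 0.01, and 8 to 101 and 18 to 253 leaving out 1 library. Without replicate 2 of both IH times, the libraries of high Saa1, they were 26 and 43, and with the spread over 17 libraries without ZT0 replicate 2 they were 709 and 1897, both chosen after seeing the data. The 227 genes called in normoxia became 140 with no filter, 2730 with all libraries sharing the spread, 46 with the replicate block, 910 at an unadjusted p of 0.01 and 35 to 1215 leaving out 1 library. The 0 genes of the interaction became 4 with all libraries sharing the spread, 92 at an unadjusted p of 0.01, and 0 to 1 leaving out 1 library. Those single genes were Snora44 without normoxia ZT0 replicate 1 and Cfd without normoxia ZT12 replicate 2, and Snora15 was the 1 gene called without the libraries of high Saa1. Where a count moved, the cause was not tested, beyond fewer libraries or more genes entering the fit.

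Of the 92 called named genes, 48 lost the call with no filter, 31 with the replicate block, 62 without both libraries of high Saa1, 7 or fewer under the other processing choices and 25 to 76 leaving out 1 library. Replicate numbers were not shown to pair the mice: same-numbered ZT0 and ZT12 libraries deviated together with r of 0.015, 0.32 and 0.312 in IH and 0.133, -0.076 and -0.302 in normoxia, and 252 of the 620 genes were called with the replicate block. Depth could not be read from the files, and 3 mice per group limit what can be called.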

Other observations

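Several gene families outside the lists, chosen after their values were seen, had members that changed at ZT12 in IH liver. Of 22 collagen genes tested, 6 fell (Col4a1, Col3a1, Col4a2, Col6a2, Col5a1 and Col6a3), 1 rose (Col27a1) and the median difference was -0.32, against -0.04 over all genes tested, and 12 were lower and 1 higher with the spread over 18 IH libraries, beside 14.9% and 7.11% of all genes. Col4a1, a basement membrane collagen, measured 5.07, 6.34 and 4.63 FPKM at ZT0 and 1.89, 2.33 and 2.15 FPKM at ZT12 (log2 difference -1.02 ± 0.13 (SE), adjusted p = 0.013 with limma). These levels stood beside the lower stellate cell and fibroblast markers, and the part of those cells was not tested. Of 13 tubulin genes, 2, Tubb2a and Tubb2b, were called with 6 libraries, with a list median of -0.49. With the spread over 18 libraries 8 were lower, beside 14.9% of all genes.

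Of 11 zinc-finger genes with symbols starting Gm143 or Gm144, 5 rose (Gm14420, Gm14436, Gm14403, Gm14431 and Gm14393) and none fell, with a median of 0.33. With the spread over 18 libraries 7 were higher, beside 7.11% of all genes. These genes are near-identical copies, so reads may have been divided among them and they are not independent. Gm14403 measured 4.88, 2.90 and 4.62 FPKM at ZT0 and 9.81, 9.13 and 9.73 FPKM at ZT12 (adjusted p = 0.024 with limma).

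Among single genes, Ccrn4l, the deadenylase nocturnin, measured 2.64, 4.37 and 5.64 FPKM at ZT0 and 12.2, 20.4 and 34.2 FPKM at ZT12 (log2 difference 2.09 ± 0.38 (SE)), and St3gal5, which makes the ganglioside GM3, measured 19.5, 28.1 and 19.8 FPKM at ZT0 and 74.1, 63.7 and 111 FPKM at ZT12 (log2 difference 1.82 ± 0.23 (SE)). Both rose, with adjusted p of 0.036 and 0.015 by limma, the former 0.077 without ZT0 replicate 2. Eif4ebp3, a translation repressor, rose by 2.26 ± 0.33 (SE), and Coq10b, which binds coenzyme Q, by 1.37 ± 0.27 (SE) (adjusted p = 0.044 by limma, and 0.090 without ZT0 replicate 2). Avpr1a, the vasopressin receptor of hepatocytes, measured 18.6, 17.0 and 19.6 FPKM at ZT0 and 3.87, 5.25 and 3.69 FPKM at ZT12. Atf5, a stress-response factor, measured 314, 337 and 353 FPKM at ZT0 and 103, 112 and 66.1 FPKM at ZT12. Chka, choline kinase, measured 49.3, 31.9 and 56.9 FPKM at ZT0 and 7.36, 15.4 and 10.1 FPKM at ZT12. These 3 fell, with log2 differences of -1.89 ± 0.13 (SE), -1.86 ± 0.20 (SE) and -1.99 ± 0.30 (SE). Outside the interferon list as tested, the RNA sensors Ddx58 and Dhx58 and the factor Irf9 had differences of -0.83 ± 0.10 (SE), -1.14 ± 0.18 (SE) and -0.80 ± 0.15 (SE) (adjusted p = 0.013, 0.025 and 0.038 with limma, the last 0.082 without ZT0 replicate 2).

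Metallothionein genes, which respond to metals and to glucocorticoids, spread widely within each time, and neither was called. Mt1 measured 5.87, 794 and 6.25 FPKM at ZT0 and 21.0, 466 and 61.2 FPKM at ZT12, and Mt2 measured 1.83, 1087 and 1.94 FPKM at ZT0 and 5.05, 211 and 26.6 FPKM at ZT12. In both, replicate 2 was the highest library at each time, as it was for Saa1 and Saa2.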
